A study of Mus musculus with 8 samples.

Results

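Ataxin-7, its 4 paralogs and the other subunits of the deubiquitinase module of SAGA were followed in peak lists of acetylated histone H3 lysine 9 (H3K9ac) from mouse cerebellum. The 7 genes, Atxn7, Atxn7l1, Atxn7l2, Atxn7l3, Atxn7l3b, Usp22 and Eny2, were chosen by name from 21887 protein-coding genes, and every peak that overlapped one of them or lay within 5 kb of it was taken. Of 52676 listed peaks, 44 met this rule. A peak was called a gene-end peak if it reached within 1 kb of either end of the gene, an internal peak if it overlapped the gene elsewhere, and a flanking peak otherwise. There were 29 gene-end, 11 internal and 4 flanking peaks.

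The knock-in group held 4 libraries of heterozygous mice labelled 266Q, in which 1 allele of Atxn7 carries an expanded glutamine tract, and the wild type group held 4 libraries. Mice of both groups were C57BL/6, aged 9 weeks, and the whole cerebellum was used, so each list mixes cell types. The series asks how H3K9ac differs in the cerebellum of symptomatic mice. The labels give neither the sex of the mice nor whether a library is 1 animal or a pool. Separate animals are not stated either, so differences among libraries may be technical. The p-values below take libraries as independent once the number of genes that each library marks is allowed for. They do not measure the spread among libraries or animals of a genotype.

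SAGA is a coactivator complex that acetylates histone H3 and removes ubiquitin from histone H2B. In its deubiquitinase module the protease USP22 depends on the adaptor ATXN7L3 and the small protein ENY2, and ataxin-7 anchors these to the rest of the complex. An expanded glutamine tract in ataxin-7 causes spinocerebellar ataxia type 7, in which the cerebellum and retina degenerate. H3K9ac marks active promoters, so a peak at the start of one of these genes describes the chromatin of that gene and not the activity of SAGA itself.

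Libraries 1 and 2 of each genotype gave long lists of broad peaks, and libraries 3 and 4 short lists of narrow ones, as the range of 7735 to 11409 peaks against 1266 to 5571 peaks shows. Read numbers were not given in the sources used here. Granule cell markers had a gene-end peak at 8 and 7 of 8 genes in libraries 1 and 2 of knock-in and of wild type alike. None of 8 genes of other tissues had a gene-end peak in any library. The same was true of 5 of 6 glial markers, all but Mbp, and 5 of 6 microglial and vascular markers, all but Kdr. A lack of peaks was thus not particular to genes of other tissues. Purkinje cell markers, 7 in all, were marked at 3 and 4 genes in knock-in libraries 1 and 2 and at 2 and 3 genes in wild type libraries 1 and 2, while Pcp2, Car8 and Pvalb had none in any library. Itpr1 of the same list was marked in 2 of 4 knock-in libraries and in 0 of 4 wild type libraries. A conditional exact test that allows for how many genes each library marks gave p = 0.501 (adjusted p = 1). In a whole tissue, a change in the number of cells of a type and a change in the signal per cell cannot be told apart.

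The annotated starts of the family place the peaks. RefSeq promoter windows of build GRCm38.p6 (mm10) run from 250 bases before to 50 bases after a start and were found for 5 of the 7 genes. Those below are shown because the results turn on them: the start inside the Atxn7 record and the start of Atxn7l3, which were marked in 6 libraries each, a marked and an unmarked start of Atxn7l1, and the start of Atxn7l3b, which was marked in 3 libraries. Each is written 5′ to 3′ on its own strand, and capitals mark the GC box GGGCGG or its reverse complement CCGCCC.
Atxn7, chr14:14012241-14012540, plus strand: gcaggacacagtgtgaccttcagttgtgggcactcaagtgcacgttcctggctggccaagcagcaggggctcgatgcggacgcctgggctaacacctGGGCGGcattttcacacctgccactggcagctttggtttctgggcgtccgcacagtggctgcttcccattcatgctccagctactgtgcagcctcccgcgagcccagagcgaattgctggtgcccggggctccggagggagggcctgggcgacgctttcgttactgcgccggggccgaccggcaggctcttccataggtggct
Atxn7l3, chr11:102296580-102296879, minus strand: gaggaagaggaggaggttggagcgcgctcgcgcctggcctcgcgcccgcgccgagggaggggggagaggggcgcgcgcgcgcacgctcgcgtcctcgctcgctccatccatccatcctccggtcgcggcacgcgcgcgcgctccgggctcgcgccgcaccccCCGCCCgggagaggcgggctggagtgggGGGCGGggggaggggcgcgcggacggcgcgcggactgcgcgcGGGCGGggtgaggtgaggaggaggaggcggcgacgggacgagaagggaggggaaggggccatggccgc
Atxn7l1, marked start, chr12:33147436-33147735, plus strand: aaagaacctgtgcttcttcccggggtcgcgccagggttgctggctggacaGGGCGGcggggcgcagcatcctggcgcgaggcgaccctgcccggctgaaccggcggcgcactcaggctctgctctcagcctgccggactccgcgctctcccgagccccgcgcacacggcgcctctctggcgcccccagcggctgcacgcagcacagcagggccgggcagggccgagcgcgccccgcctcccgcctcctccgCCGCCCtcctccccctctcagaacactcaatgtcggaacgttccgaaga
Atxn7l1, unmarked start, chr12:33315155-33315454, plus strand: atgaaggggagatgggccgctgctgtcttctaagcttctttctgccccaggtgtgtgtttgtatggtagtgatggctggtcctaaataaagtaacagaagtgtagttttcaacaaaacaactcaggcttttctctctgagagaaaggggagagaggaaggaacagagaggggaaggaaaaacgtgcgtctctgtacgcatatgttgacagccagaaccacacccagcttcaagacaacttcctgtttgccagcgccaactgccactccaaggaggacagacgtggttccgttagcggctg
Atxn7l3b, chr10:112928977-112929276, minus strand: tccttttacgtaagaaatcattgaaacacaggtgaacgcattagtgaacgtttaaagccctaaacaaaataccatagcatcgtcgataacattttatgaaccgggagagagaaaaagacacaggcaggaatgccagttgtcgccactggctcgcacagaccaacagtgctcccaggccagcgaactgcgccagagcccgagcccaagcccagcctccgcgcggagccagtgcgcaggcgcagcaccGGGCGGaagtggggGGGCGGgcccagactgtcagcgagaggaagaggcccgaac

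The windows differ widely in base composition. The Atxn7l3 window held 51 CG dinucleotides and 80.0% G or C, and 99.1% of 21263 promoter windows of protein-coding genes held fewer CG dinucleotides. The marked Atxn7l1 window shown above held 35, the Atxn7l3b window 21 and the Atxn7 window 19, against a median of 13 over all promoter windows. Not every marked window was rich in CG dinucleotides. The Atxn7l1 starts at 33146968 and 33146971 had a peak within 1 kb in the same libraries, but their windows held 10 each and no GC box. The unmarked Atxn7l1 window held 8. A GC box was found on either strand in 5 of the 9 windows of the family, at 1 start each of 5 genes, and in 46.2% of all promoter windows. Other motifs, none of which contains the GC box, were searched on both strands. The CCAAT box, spelled CCAAT, was in 38.2% of all promoter windows, and the TATA box, spelled TATAAA, was in 12.6%. The ETS motif, spelled CCGGAAG, was in 11.6%, the E-box, spelled CACGTG, was in 7.84%, and a core of the cyclic AMP response element, spelled TGACG, was in 23.6%. They were found in 0 of the 9 windows.

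Atxn7, the gene that carries the expansion, had a pair of peak sites. Its record spans chromosome 14 from 13961283 to 14107316, a length of 146 kb, but the start in the promoter table lies at 14012491, which is 51208 bp inside that record. A peak at this inner start was listed in 3 knock-in and 3 wild type libraries. The peak at the low end of the record was listed in 2 knock-in and 2 wild type libraries.

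Widths of the inner peak were 1356, 1554 and 143 bp in knock-in libraries 1, 2 and 3, and 2146, 1492 and 149 bp in wild type libraries 1, 2 and 3. It was absent from library 4 of both genotypes. The widths of the genotypes overlapped. In libraries 1 and 2 of both genotypes all 4 peaks covered a common stretch of 1230 bp, from 14012270 to 14013499. The narrow peaks of knock-in library 3 and wild type library 3 both fell inside this stretch, 111 and 423 bp downstream of the start, and lay 169 bp apart.

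Score, the authors' own value per peak, placed the inner Atxn7 peak high in the long lists. In knock-in libraries 1 and 2 it exceeded 97.1% and 87.4% of the peaks of its list, and in wild type libraries 1 and 2 it exceeded 80.7% and 92.0%. In library 3 it exceeded 29.1% of the list in knock-in and 30.5% in wild type. The ranks of the genotypes overlapped in libraries 1 and 2. Ranks from lists of different length cannot show whether the signal changed, so these were not tested.

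The low end of the Atxn7 record was covered by peaks of 1975 and 1408 bp in knock-in libraries 1 and 2 and of 1740 and 1700 bp in wild type libraries 1 and 2. Each of these 4 peaks also held an annotated start of Thoc7, a subunit of the THO complex of messenger RNA export, at 13961852 on the minus strand. The Thoc7 record overlaps that of Atxn7 by 713 bp. Signal of the Thoc7 start and of an upstream Atxn7 transcript cannot be told apart there. The peaks exceeded 93.5% and 65.0% of their lists in knock-in libraries 1 and 2, against 86.9% and 85.5% in wild type libraries 1 and 2.

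**Figure D1:**
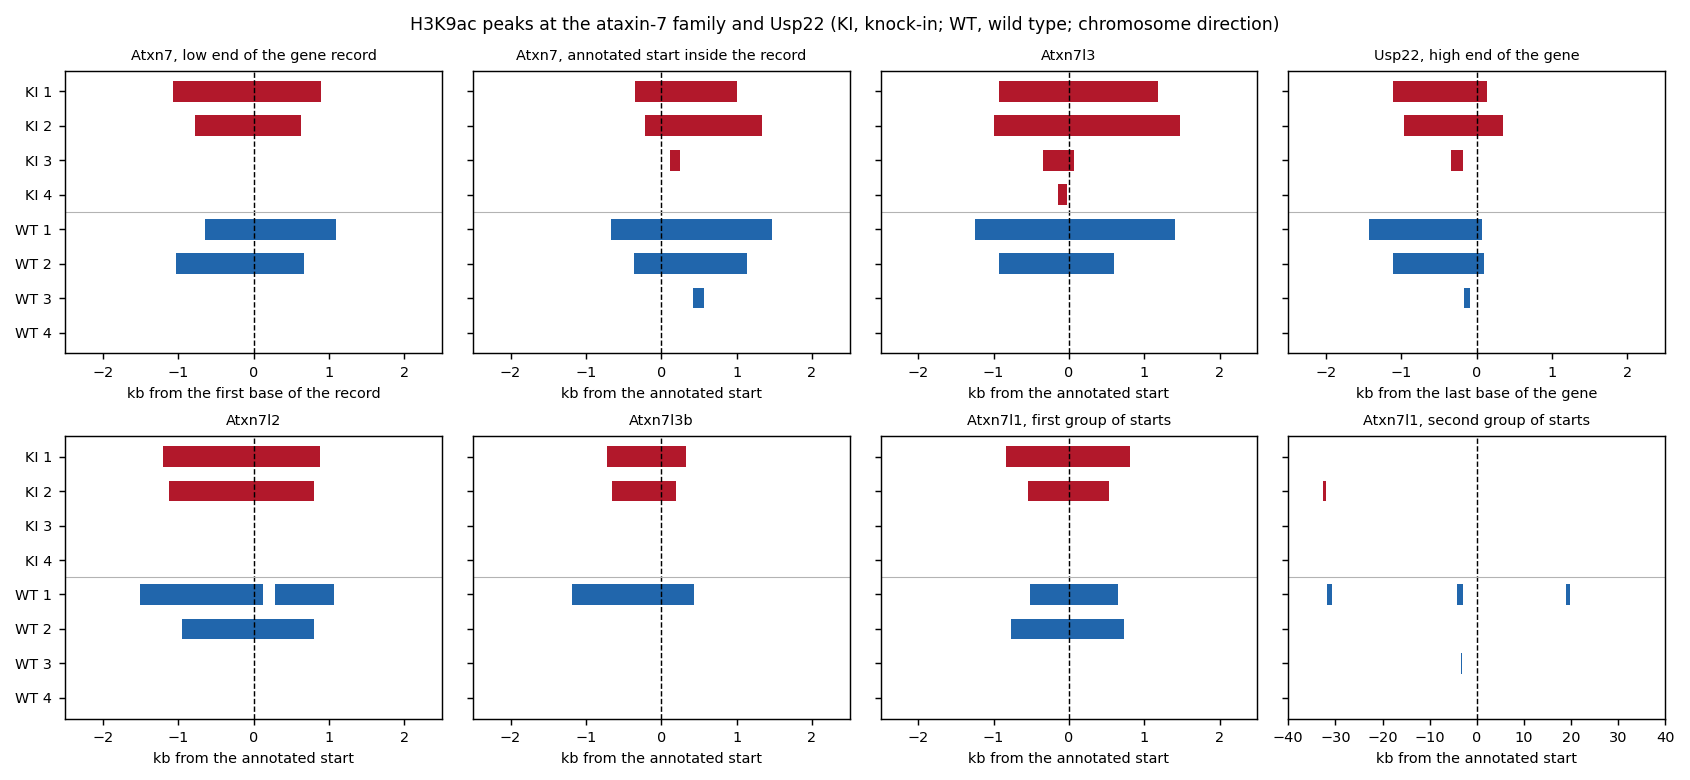
Horizontal bars show the extent of each peak in kb from the position named on the axis, in chromosome direction, with knock-in libraries 1 to 4 (KI, red) above wild type libraries 1 to 4 (WT, blue). Broad peaks of libraries 1 and 2 lie over the same positions in both genotypes, the inner Atxn7 start is marked in 3 libraries of each, and Atxn7l3 is marked in 4 knock-in and 2 wild type libraries.

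Inside gene bodies, Atxn7 was found in equal numbers of libraries of each genotype, and a two-sided conditional exact test gave p = 1 (adjusted p = 1). This test fixes how many libraries mark a gene. It asks whether the knock-in share of them is larger or smaller than library odds allow. These odds are fitted to how many genes each library marks, so a difference between genotypes in that number is allowed for too. The p of this test was adjusted by the Benjamini-Hochberg method over all genes tested. It called 0 of the 3996 genes tested for internal peaks (0%). Before adjustment 20 of them had a p under 0.05. Fisher's exact test also called 0, which adds no support here or in the comparisons below. With 4 libraries against 4, its lowest possible p cannot pass adjustment unless most of the genes tested reach it. An internal peak in at least 1 library was common in long genes. Of 2429 genes of 100 kb or more, 1433 (59.0%) had one, while 159 (6.55%) had one in 6 or more libraries, as Atxn7 did.

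Atxn7l3, the adaptor that activates USP22, was the member whose detection differed most between genotypes. Its start on chromosome 11 (gene at 102289300 to 102297045) was marked in 4 of 4 knock-in libraries, against 2 of 4 wild type libraries. Summed over the peaks of a library, widths were 2116, 2477, 401 and 127 bp in knock-in libraries 1 to 4, and 2655 and 1524 bp in wild type libraries 1 and 2. Wild type libraries 3 and 4 had no peak there, and their nearest peaks lay 20146 and 20544 bp away, beside Ubtf. The conditional exact test gave p = 0.0907 (adjusted p = 1).

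The difference at Atxn7l3 rests on narrow peaks of the short lists. Within libraries 1 and 2 it was detected in 2 knock-in and 2 wild type libraries. Knock-in library 3 held adjacent peaks of 295 and 106 bp, 3 bp apart, which exceeded 91.6% and 9.89% of the list. Knock-in library 4 held 1 peak of 127 bp, which exceeded 23.5% of the list and overlapped the wider of those peaks by 105 bp. Knock-in library 4 had 1266 peaks and wild type library 4 had 1571, and knock-in library 3 had 5571 and wild type library 3 had 3249. The conditional test allows for the number of genes each library marks, and any further part of list length was not tested. Without knock-in library 4 the conditional exact p of Atxn7l3 was 1, and without wild type library 3 it was 0.354, with adjusted p = 1 in both cases.

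Every broad Atxn7l3 peak also held the start of Gm33851, a predicted gene on the opposite strand whose start at 102296389 lies close to that of Atxn7l3 at 102296629. The wider narrow peak of knock-in library 3 held only the Gm33851 start, the narrower one held only the Atxn7l3 start, and the peak of knock-in library 4 lay between the starts. Acetylation of one promoter cannot be told from that of the other. In the long lists the Atxn7l3 peak exceeded 93.6% and 86.2% of the peaks in knock-in libraries 1 and 2, and 90.0% and 88.9% in wild type libraries 1 and 2.

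At gene ends, 0 of the 6 members with a peak were called, and 0 of all 9826 genes tested were called (0%). Before adjustment 90 genes had a p under 0.05. Fisher's exact test called 0, a count that its few possible p-values made all but certain. With 4 libraries against 4, a gene found in 4 and 2 libraries cannot pass Fisher's exact test, whose p was 0.429 for Atxn7l3 before adjustment. Atxn7l3 was the 1 member with a peak in at least 2 more knock-in libraries, as were 8.8% of the genes tested. No member had a peak in at least 2 more wild type libraries, as did 0.672% of the genes tested. The same set of 6 libraries that marked Atxn7l3 marked 42 genes in all.

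Usp22, the ubiquitin protease of the module, was marked in equal numbers of libraries of both genotypes under the main settings. Its peak lay at the high end of the gene on chromosome 11 (61151781 to 61175059) in 3 knock-in and 3 wild type libraries. Widths were 1243, 1315 and 160 bp in knock-in libraries 1, 2 and 3, and 1506, 1207 and 80 bp in wild type libraries 1, 2 and 3. Library 4 had no peak in either genotype, and the widths of the genotypes overlapped in libraries 1 and 2. With a score of at least 100, or an overlap of at least 100 bp, Usp22 was marked in 3 knock-in and 2 wild type libraries.

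The 4 broad Usp22 peaks shared 1030 bp, from 61174100 to 61175129. The narrow peaks of library 3 lay inside this stretch, 18 bp apart, and did not overlap each other. Usp22 peaks ranked high in the list of every library that held one: they exceeded 82.1%, 95.3% and 80.1% of the peaks in knock-in libraries 1, 2 and 3, and 81.0%, 86.5% and 73.6% in wild type libraries 1, 2 and 3. The set of libraries that marked Usp22 was shared by 604 genes, and the conditional exact test gave p = 1 (adjusted p = 1).

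**Figure D2:**
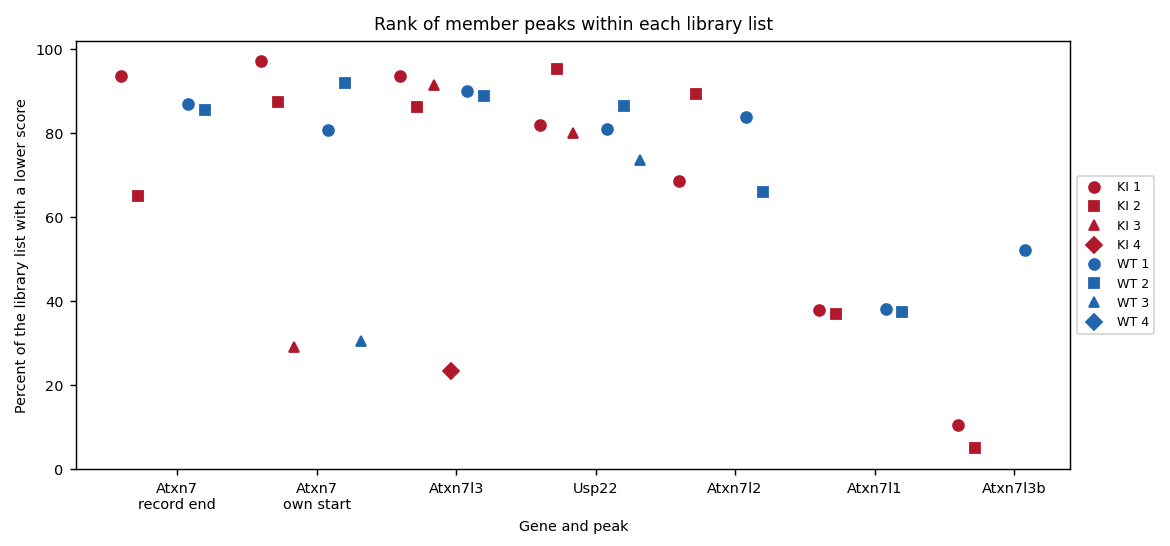
Points show, for the gene-end peaks of each gene and for the peak at the inner Atxn7 start, the percent of peaks of the same list with a lower score, taking the best-scored peak of a library, with knock-in libraries (KI, red) left of wild type libraries (WT, blue) and 1 symbol per replicate number. Usp22 lies between 73.6% and 95.3%, Atxn7l1 between 37.0% and 38.1%, and Atxn7l3b at 10.5% and 5.08% in knock-in libraries, against 52.2% in wild type.

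Eny2, the small subunit that the deubiquitinase module shares with the TREX-2 complex of messenger RNA export, had no peak in any of the 8 libraries. No peak overlapped the gene on chromosome 15 (44428082 to 44438256) or lay within 5 kb of it. The nearest peaks lay 180457 and 180830 bp away in knock-in libraries 1 and 2, and 180829 and 180846 bp away in wild type libraries 1 and 2, in each case at Ebag9. In libraries 3 and 4 the nearest peak was over 1 Mb away in both genotypes. Nudcd1, whose record overlaps that of Eny2 by 226 bp, had no gene-end peak either. A missing peak says that none was listed and not that the mark was absent, and 43.7% of protein-coding genes had no peak within 5 kb in any library.

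Atxn7l2, a paralog of ataxin-7, had a broad peak over its start in libraries 1 and 2 of both genotypes and none in libraries 3 and 4. The gene lies on chromosome 3 from 108202222 to 108210577. Its peaks were 2086 and 1920 bp wide in knock-in libraries 1 and 2. In wild type library 1 the same stretch was listed as peaks of 1627 and 777 bp, 165 bp apart, and in wild type library 2 as 1 peak of 1754 bp. The start at 108210527 lay inside a peak in all 4 libraries, and the peaks reached into Sypl2, whose record overlaps Atxn7l2 by 168 bp but whose annotated start at 108226599 had no peak in any library.

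Atxn7l1, another paralog, is the longest gene of the family at 229 kb (chromosome 12, 33146968 to 33376408). Its first group of starts carried a peak in libraries 1 and 2 of both genotypes, with widths of 1652 and 1080 bp in the knock-in lists, against 1160 and 1505 bp in the wild type lists. The 4 peaks shared 1043 bp and scored above 37.9% and 37.0% of the lists in knock-in libraries 1 and 2, against 38.1% and 37.6% in wild type libraries 1 and 2. They also held the start of the antisense RNA gene F730043M19Rik at 33147586. The second group of starts, at 33314297 and 33315405, had no peak within 1 kb in any library.

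Inside Atxn7l1, 5 peaks were listed, 1 in knock-in and 4 in wild type. Knock-in library 2 had a peak of 645 bp from 33281604. Wild type library 1 had peaks of 1035, 1193 and 854 bp from 33282454, 33310122 and 33333258. Wild type library 3 had a peak of 271 bp from 33310870, which lay wholly inside the second of those and exceeded 87.2% of its list. That site lay 2983 bp before the second group of starts in the broad peak. It was the only internal Atxn7l1 site where peaks of more than 1 library overlapped. The knock-in peak lay 205 bp from the wild type library 1 peak that starts at 33282454. An internal peak was thus listed in 1 of 4 knock-in libraries, against 2 of 4 wild type libraries (conditional exact p = 0.480, adjusted p = 1).

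Atxn7l3b, a short relative of Atxn7l3 whose human protein competes for ENY2 outside the nucleus, carried the lowest-scored peaks of the family in knock-in libraries 1 and 2. The gene lies on chromosome 10 from 112925428 to 112929026, and its start peak was listed in 2 knock-in libraries and 1 wild type library. Widths were 1060 and 852 bp in knock-in libraries 1 and 2, and 1620 bp in wild type library 1. These peaks exceeded 10.5% and 5.08% of the lists in knock-in libraries 1 and 2, against 52.2% in wild type library 1, and the knock-in scores of 61.0 and 53.5 were close to the lowest scores of the 8 lists, 50.0 to 50.2. The conditional exact test gave p = 1 (adjusted p = 1). Only with peaks scored at least 100 was the direction turned, to 0 knock-in and 1 wild type libraries.

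**Figure D3:**
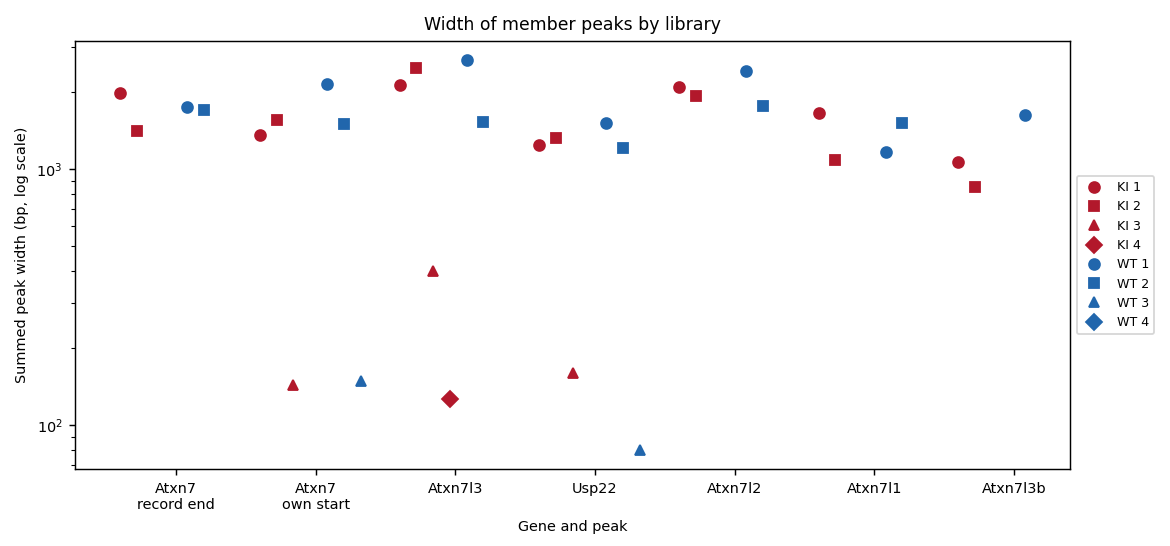
Points show the summed width in bp of the gene-end peaks of each gene, and of the peak at the inner Atxn7 start, per library on a log scale, with knock-in libraries (KI, red) left of wild type libraries (WT, blue) and 1 symbol per replicate number. Libraries 1 and 2 lie between 852 and 2655 bp, libraries 3 and 4 between 80 and 401 bp, and the genotypes overlap within libraries 1 and 2 at each gene except Atxn7l3b. Internal Atxn7l1 peaks and flanking peaks are not drawn.

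Over the whole family, gene-end peaks were found at 6, 6, 2 and 1 of 7 members in knock-in libraries 1 to 4, and at 6, 5, 1 and 0 in wild type libraries 1 to 4. For all protein-coding genes the share with a gene-end peak was 39.1%, 36.2%, 10.4% and 0.896% in knock-in libraries 1 to 4, and 31.9%, 27.8%, 5.43% and 1.46% in wild type libraries 1 to 4. In every library other than wild type library 4 the share of members was above the share of all genes, as 85.7% against 39.1% in knock-in library 1 shows. All 4 long lists marked 5 of the 7 members, as they did 22.9% of protein-coding genes. Over loci with 5 kb on each side, 0 of 12244 genes tested were called (0%). Before adjustment 157 of them had a p under 0.05, Fisher's exact test also called 0, and each of the 6 members tested had an adjusted p of 1.

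At annotated starts alone, Atxn7 was marked in 3 knock-in and 3 wild type libraries in place of 2 and 2 at the ends of its record. The other 4 members with a promoter window kept the counts found at gene ends. At starts, 0 of 8074 genes tested were called (0%). Before adjustment 70 of them had a p under 0.05, Fisher's exact test also called 0, and Atxn7l3 had p = 0.0884 by the conditional exact test (adjusted p = 1).

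The other subunits and enzymes of SAGA were marked much like the module. Of 20 genes, 15, 15, 6 and 0 had a gene-end peak in knock-in libraries 1 to 4, and 14, 13, 1 and 0 in wild type libraries 1 to 4. The median gene was found in 4 of 8 libraries, as was the median of the 7 members, against 0 over all protein-coding genes. More knock-in than wild type libraries marked 9 of the 20, fewer marked 2, and equal numbers marked 6. For all protein-coding genes these numbers were 4727 with more and 1144 with fewer knock-in libraries, and 3980 with equal numbers. No gene-end peak was found in any library at 3 of the 20 and at 12036 of all 21887 genes. None of the 20 was called (adjusted p of 1 for each tested gene).

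Among the enzymes that can replace USP22 on ATXN7L3 and ENY2 in human cells, Usp51 was marked in 2 of 4 knock-in libraries, against 0 of 4 wild type libraries (conditional exact p = 0.501, adjusted p = 1), and Usp27x was marked in 2 of each. In the acetyltransferase module Sgf29, a reader of methylated histone H3, had no peak in any library. In the core module Supt20 and Taf9b, which are structural subunits, had none. The core module was where library 3 differed most: 5 of 11 core genes had a peak in knock-in library 3 and 0 of 11 in wild type library 3. These 5 genes, Supt3, Taf5l, Taf9, Taf10 and Tada1, were chosen after their values were seen, and each was marked in 3 knock-in libraries, against 2 of wild type (conditional exact p = 1, adjusted p = 1). Over all genes, 2276 were marked in knock-in library 3 and 1188 in wild type library 3.

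**Figure D4:**
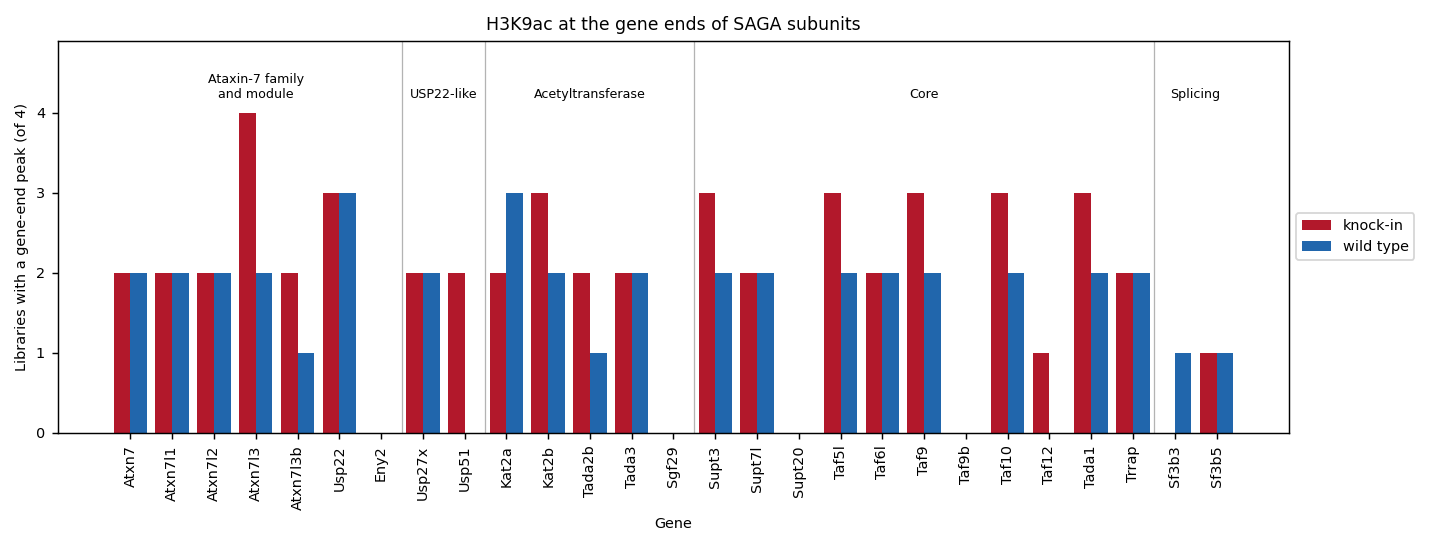
Bars give the number of libraries, of 4 per genotype, with an H3K9ac peak within 1 kb of either gene end, for knock-in (red, left) and wild type (blue, right), over the ataxin-7 family and module and 4 groups of other SAGA genes. Most genes stand at 2 or 3 libraries in both genotypes, Atxn7l3 stands at 4 and 2, and Eny2, Sgf29, Supt20 and Taf9b at 0.

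Enzymes and adaptors that attach the ubiquitin which USP22 removes from histone H2B showed no called difference. Of 5 genes, Rnf20, Rnf40, Ube2a, Ube2b and Wac, 4, 3, 1 and 0 had a gene-end peak in knock-in libraries 1 to 4, and 4, 2, 1 and 0 in wild type libraries 1 to 4. Of 5 TREX-2 genes, the complex in which ENY2 also works, 2, 2, 1 and 1 had a peak in knock-in libraries 1 to 4, and 2, 2, 1 and 0 in wild type libraries 1 to 4. The scaffold gene Mcm3ap and the centrin genes Cetn2 and Cetn3 had none, as Eny2 had none. None of these 10 genes was called.

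Genes whose gene-end peaks were most like those of the members were taken from the genes marked in the same libraries, by the mean absolute difference in summed width over the 8 libraries. They were Zkscan17 and Shd for Atxn7, at 40.2 and 45.0 bp, Zfp280d and Arhgef7 for Atxn7l1, at 23.2 and 25.5 bp, and Sox12 and Tagln3 for Atxn7l2, at 33.2 and 48.0 bp. For Atxn7l3 they were Rnf103 and Wnk2, at 119.8 and 138.4 bp, and for Usp22 they were Crlf3 and Usp16, at 45.6 and 49.4 bp. The likeness for Atxn7 concerns the peak it shares with Thoc7. In each mean, libraries that marked neither gene added no difference. The values are thus not comparable between members marked in different numbers of libraries.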

How the data were processed

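H3K9ac chromatin immunoprecipitation and sequencing was done on cerebellum, with 4 knock-in and 4 wild type libraries grouped by their titles. Bowtie2 and build mm10 are named in the submitters' processing notes. The file headers name MACS as run in Galaxy, with 1 list per library. Its version, settings and input control are not stated. Scores, as the authors deposited them, have no stated scale and served only as ranks inside each list. Depth is unknown. Negative start positions, found at 15 peaks, were moved to the first base.

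Gene records came from RefSeq GRCm38.p6, which mm10 names, without strand. All 7 members matched, and start positions came from the promoter table. A library held a gene if a peak overlapped its window by 1 bp or more. Coordinates are 1-based. A two-sided conditional exact test with library odds from a Rasch model was run over all genes with a peak in 1 to 7 libraries. Its p-values had Benjamini-Hochberg adjustment at 0.05. The test was checked on data simulated from that same model, so the check does not cover departures from the model. Python 3.11.15, numpy 2.4.6, scipy 1.17.1 and pandas 2.3.3 were used.

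Members, lists and tests were chosen with earlier results of these data known. Named genes were the members, genes sharing their peaks, genes of the other lists that differed by 2 or more libraries or had no peak, and the 2 genes most like each member, which for Atxn7l3b are not reported here. Other names were added after their values were seen. Replicate numbers are shared by the genotypes. Deviations from the group means over 21887 genes correlated by 0.487, 0.388, 0.389 and 0.754 between libraries numbered 1 to 4. Knock-in library 2 correlated more with wild type library 1 (0.460) and wild type library 2 with knock-in library 1 (0.393). Wild type library 3 correlated more with knock-in library 4 (0.547). The correlations thus do not settle whether the numbers pair the libraries. The main test did not pair them, and the replicate number served as a block in an alternative only. Libraries 1 and 2 correlated negatively with libraries 3 and 4 of the other genotype in every case. Deviations cancel out over the libraries of a genotype, so correlations of both signs had to occur. The alternatives were other windows, flanks, overlaps, scores and list lengths, Fisher's exact test, a replicate block and each library left out.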

Additional observations from a re-analysis of the deposited data

How the results depend on the processing

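At gene ends the count of called genes was 0 as reported and under every alternative run except 1: leaving out each library in turn gave 0 to 1 called genes, the 1 call (no member) arising without wild type replicate 2, and its cause was not tested. Over loci with 5 kb flanks and inside gene bodies the count was 0 under all alternatives run. With the replicate number as a block it was 0 in all 3 comparisons. Atxn7l3 then had p = 0.416 by the exact test with that block (adjusted p = 1). Over 117 values of single members under the alternatives, adjusted p was 1 wherever a test could be made. The knock-in minus wild type difference in the percent of libraries with an Atxn7l3 peak was 50 as reported, 33.3 to 66.7 with 1 library left out, 25 with a score of at least 100 or lists of 1266 peaks each, and 0 within replicates 1 and 2. For Atxn7l3b it was 25 as reported and turned to -25 with a score of at least 100, where both knock-in peaks fall under the limit. Within replicates 1 and 2, 0 genes were called in all 3 comparisons by the conditional exact test. At an unadjusted p under 0.05 were 39 genes at gene ends, 48 over loci and 0 inside gene bodies. The lowest p reached was 0.0247, 0.0334 and 0.112 in that order. With 2 libraries against 2 few p-values are possible, so these counts of 0 called genes could hardly have differed and add no support. The same holds for the 0 of Fisher's exact test and for the 0 with the replicate block, which compares only the libraries that share a number. Unknown read depth limits what a missing peak means, above all in libraries 3 and 4.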

Other observations

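Flanking peaks of the family, 3 in knock-in and 1 in wild type libraries, lay at or in other genes in all but 1 case. Peaks of 730 bp in knock-in library 2 and 715 bp in wild type library 2 lay 3743 and 3626 bp below Atxn7l3, at the low end of Tmub2. A peak of 854 bp in knock-in library 1 lay 4416 bp below Atxn7l2, inside Cyb561d1. A peak of 134 bp in knock-in library 3 lay 4924 bp above Atxn7l3 and overlapped no gene record.

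Further neighbours of the members were also looked up. Psmd6, a proteasome subunit gene above the high end of Atxn7, had a gene-end peak in 2 knock-in libraries and 1 wild type library. Tnfrsf13b, a receptor gene of B cells whose record overlaps that of Usp22 by 1390 bp, had none in any library. The antisense gene Atxn7l1os2, at the high end of Atxn7l1, had no peak within 1 kb of its start in any library.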
